A study of Homo sapiens with 12 samples.

Results

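Interferon-stimulated genes are the genes that cells switch on after interferons bind their receptors. Of 48 listed genes, 47 had a probe set annotated to that gene alone on the array, and these 47 are described here among 11963 genes with such a probe set. IFI30, a lysosomal thiol reductase, was not analysed here. Where a gene had several probe sets, the one with the highest mean over the 12 arrays stood for it. Transcript levels came from 12 arrays. HCC827, the line from which all the cells came, is an established line of human lung adenocarcinoma whose EGFR receptor kinase carries an activating mutation. The 4 groups held 3 arrays each. ERC4 cells, labelled resistant to the EGFR kinase inhibitor erlotinib, were set against the parental HCC827 line, and both were grown in RPMI with 5% FBS and antibiotics, with no erlotinib named in the medium. HCC827_Esh9-1 cells (Esh9-1 below), which carry a lentiviral shRNA against EGFR, were set against HCC827NT cells, which carry a lentiviral non-target shRNA. Esh9-1 and HCC827NT cells were both transduced and both kept in the same medium with 5 ug/ml puromycin. ERC4 is 1 resistant line and Esh9-1 carries 1 shRNA, so neither stands for resistance or knockdown at large. A resistance field in the labels calls all 12 samples resistant, so groups were taken from titles and descriptions.

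Interferons of the alpha and beta type signal through a receptor with JAK1 and TYK2 kinases to a complex that contains IRF9, and this complex binds a DNA element called the interferon-stimulated response element, or ISRE. Interferon gamma signals through JAK1 and JAK2 to a factor that binds another element, called GAS. The induced genes include RNA sensors and nucleases, proteins that block viral entry or release, the ubiquitin-like protein ISG15 and the machinery that loads peptides on HLA class I molecules. Carcinoma lines without added interferon can also express many of them.

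The promoters of 6 genes are shown because their transcripts moved in different ways in the comparisons that follow: IFI27 was lower in both, IFITM3, BST2 and IFIT1 were higher in ERC4 and lower in Esh9-1, and GBP1 and TAP1 were higher in both. Each runs 5′ to 3′ on the strand of the gene, from 250 bases before to 50 bases after the RefSeq start site (GRCh38.p14). Capitals mark matches on either strand to the core of the ISRE, which is GAAA, any 2 bases, then GAAA. For a gene with several start sites, the first listed window that held a core is shown. The windows are IFI27 on the plus strand at chr14:94110486-94110785, IFITM3 on the minus strand at chr11:320811-321110, BST2 on the minus strand at chr19:17405581-17405880, IFIT1 on the plus strand at chr10:89392373-89392672, GBP1 on the minus strand at chr1:89065159-89065458 and TAP1 on the minus strand at chr6:32853655-32853954.
IFI27: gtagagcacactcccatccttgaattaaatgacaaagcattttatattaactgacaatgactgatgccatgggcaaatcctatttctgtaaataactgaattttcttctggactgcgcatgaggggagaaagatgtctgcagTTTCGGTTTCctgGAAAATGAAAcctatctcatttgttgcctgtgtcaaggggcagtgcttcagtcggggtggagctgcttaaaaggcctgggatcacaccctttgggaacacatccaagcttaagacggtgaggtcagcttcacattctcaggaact
IFITM3: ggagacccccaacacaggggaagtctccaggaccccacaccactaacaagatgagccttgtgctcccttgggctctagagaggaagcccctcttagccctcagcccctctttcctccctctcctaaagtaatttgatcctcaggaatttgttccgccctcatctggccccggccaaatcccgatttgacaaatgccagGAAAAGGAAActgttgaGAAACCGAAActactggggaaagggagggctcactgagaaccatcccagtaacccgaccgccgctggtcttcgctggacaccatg
BST2: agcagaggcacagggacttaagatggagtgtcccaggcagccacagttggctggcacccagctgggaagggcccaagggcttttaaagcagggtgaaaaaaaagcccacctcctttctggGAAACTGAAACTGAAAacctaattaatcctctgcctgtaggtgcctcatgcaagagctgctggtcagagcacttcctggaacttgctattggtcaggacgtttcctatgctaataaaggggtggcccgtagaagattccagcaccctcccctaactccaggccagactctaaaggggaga
IFIT1: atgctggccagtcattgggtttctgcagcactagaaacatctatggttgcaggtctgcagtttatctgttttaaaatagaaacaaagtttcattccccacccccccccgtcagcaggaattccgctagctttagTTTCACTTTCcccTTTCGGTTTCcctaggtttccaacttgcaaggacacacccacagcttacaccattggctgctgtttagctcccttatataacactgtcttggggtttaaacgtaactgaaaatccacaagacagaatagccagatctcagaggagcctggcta
GBP1: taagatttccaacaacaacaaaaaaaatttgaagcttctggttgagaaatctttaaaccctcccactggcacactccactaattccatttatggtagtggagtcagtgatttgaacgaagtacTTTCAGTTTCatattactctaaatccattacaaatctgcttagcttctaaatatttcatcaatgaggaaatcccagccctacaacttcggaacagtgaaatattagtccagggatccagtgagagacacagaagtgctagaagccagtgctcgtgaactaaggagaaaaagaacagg
TAP1: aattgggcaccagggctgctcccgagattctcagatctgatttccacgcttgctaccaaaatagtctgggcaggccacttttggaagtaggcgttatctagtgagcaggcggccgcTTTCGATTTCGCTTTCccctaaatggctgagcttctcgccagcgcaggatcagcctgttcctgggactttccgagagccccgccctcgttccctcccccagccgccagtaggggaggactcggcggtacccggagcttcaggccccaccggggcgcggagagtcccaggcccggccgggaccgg
In these windows IFI27 held 2 cores, at positions -108 and -95 relative to the start site, and IFIT1 held 2, at -116 and -103. IFITM3 held 2 cores close to its start site, at -52 and -35, and GBP1 held 1, at -127. The 2 matches of BST2, at -130 and -124, overlapped each other, as did those of TAP1, at -134 and -128. Relative to another start site of IFI27 its cores lay at -187 and -174, and another window of TAP1 held no core. A promoter entry was matched for 36 of the 47 genes, some with several start sites, and a gene counts as holding a motif when any of its windows does. The ISRE core was found in 24 of the 36 genes (66.7%), against 4.38% of 27305 genes and 3.57% of 35116 windows of the same length. The GAS letters, TTCNNNGAA, were found in 13 of the 36 genes (36.1%), against 9.38% of all genes and 7.66% of all windows. A match is a run of letters, and no binding was measured.

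The deposited values were array intensities, analysed as log2(intensity + 1), which understates fold changes of dim genes. Array medians lay between 5.67 and 5.75 on this scale in the ERC4 and parental arrays and between 7.15 and 7.17 in the Esh9-1 and HCC827NT arrays, so the 2 sets of 6 arrays were treated as normalized apart and each comparison was made within its own set. Replicate arrays correlated at 0.9923 or above, and the labels do not name separate cultures, so every p-value here reflects only how far these arrays differ, which may be technical. EGFR, the target of the shRNA, had a log2 level of 12.25 ± 0.09 in Esh9-1, against 13.55 ± 0.10 in HCC827NT, and of 12.60 ± 0.09 in ERC4, against 12.38 ± 0.04 in parental (SD, n = 3 each). Added hybridisation controls averaged 9.48 ± 0.07 in ERC4 and 11.04 ± 0.15 in parental, and 11.92 ± 0.06 in Esh9-1 and 11.37 ± 0.10 in HCC827NT. The 3′ minus 5′ difference of the ACTB control probes, a sign of RNA or cDNA length, was 1.07 ± 0.15 in Esh9-1 and 0.20 ± 0.03 in HCC827NT, and 0.19 ± 0.04 in ERC4 and 0.22 ± 0.05 in parental. For GAPDH the same difference was 0.30 ± 0.08 in Esh9-1 and -0.05 ± 0.02 in HCC827NT. The part of these controls in the results was not tested.

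Most interferon-stimulated genes were lower in Esh9-1 cells than in HCC827NT cells. Of the 47, 38 fell, 5 rose and 4 did not pass the test at a Benjamini-Hochberg adjusted p under 0.05 (limma, 3 arrays per group), while 24.6% of all genes fell, 25.3% rose and 49.9% were called either way. At least 2-fold falls numbered 27, with a background of 4.11%, and at least 2-fold rises 3, with a background of 4.89%. The median log2 fold change was -1.18 over the 47 genes and -0.02 over all genes, and the range was -4.25 to 2.52. The Esh9-1 and HCC827NT arrays stood apart without overlap for 43 of the 47, where 61.3% of all genes did not overlap. Calls and lack of overlap in the smaller groups of genes below are to be read against these shares. Of the 37 members in the upper 50% of all genes by mean level, 31 fell and 4 rose, against 30.2% and 36.0% of all genes there. In bulk RNA such as this, fewer cells that express a gene and less RNA per cell cannot be told apart.

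**Figure D1:**
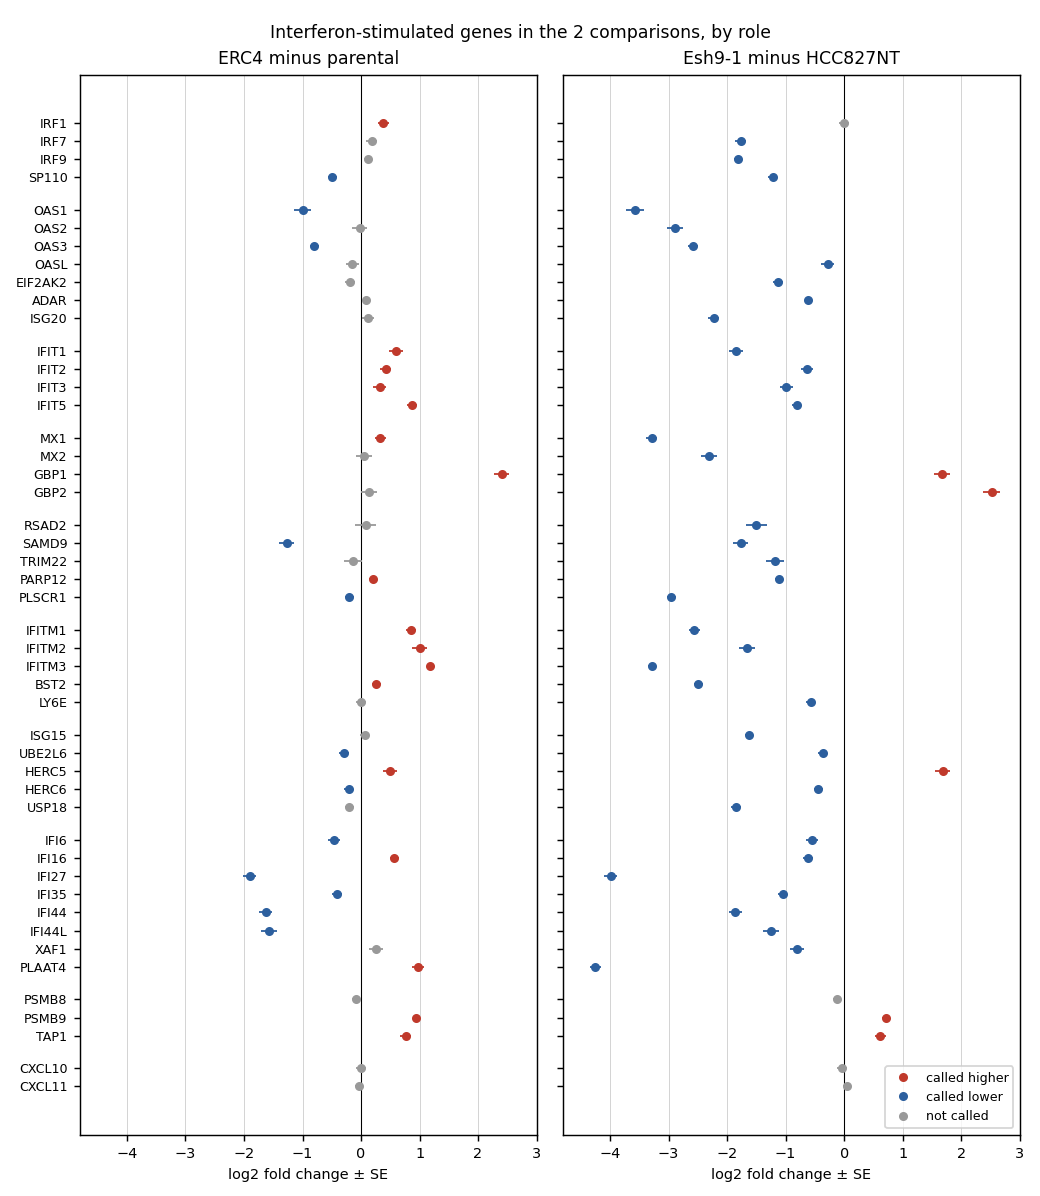
Log2 fold changes with limma's standard errors for the 47 genes, ordered by role from top to bottom, with ERC4 minus parental on the left and Esh9-1 minus HCC827NT on the right. Red, blue and grey points are genes called higher, called lower and not called; 17 are red and 12 blue on the left, 5 are red and 38 blue on the right.

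Among regulators of the response, IRF7 and IRF9 fell in Esh9-1 while IRF1 did not pass. IRF7, which drives interferon genes, changed by -1.77 ± 0.09 on the log2 scale (SE; adjusted p = 5.3e-10, limma), and IRF9, the DNA-binding part of the interferon-activated complex, by -1.81 ± 0.07. SP110, a nuclear body protein, changed by -1.22 ± 0.08. IRF1, a factor induced most by interferon gamma, had mean log2 levels of 9.37 in Esh9-1 and 9.37 in HCC827NT (adjusted p = 0.97).

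A list of 7 antiviral proteins that bind, modify or degrade RNA, or resemble those that do, fell in 7 of 7 cases, with a median log2 fold change of -2.23. OAS1, OAS2 and OAS3 are oligoadenylate synthetases, which make a messenger that activates RNase L, and they lie next to each other on chromosome 12. OAS1 had log2 levels of 5.37, 5.87 and 5.76 in Esh9-1 and 8.94, 9.53 and 9.24 in HCC827NT. OAS2 had 5.77, 5.95 and 6.23 in Esh9-1 and 8.64, 9.11 and 8.86 in HCC827NT. OAS3 had 8.39, 8.42 and 8.33 in Esh9-1 and 10.85, 11.08 and 10.97 in HCC827NT. Every Esh9-1 array was below every HCC827NT array for all 3. The falls were 11.9-fold for OAS1 (log2 -3.57 ± 0.15, adjusted p = 4.9e-11), 7.39-fold for OAS2 (log2 -2.89 ± 0.13) and 6.0-fold for OAS3 (log2 -2.58 ± 0.08). The other probe sets gave -2.84 ± 0.12 for OAS1 and -1.22 ± 0.14 for OAS2, so the fold for OAS2 depends on the probe set. OAS1 and OAS2 lay below the array median in Esh9-1, where a dim signal limits the size of a fold. ISG20, an RNA exonuclease, fell 4.68-fold, EIF2AK2, the kinase PKR, 2.19-fold, and ADAR, an RNA editing enzyme, 1.53-fold. OASL, an OAS-like protein without synthetase activity, was called lower at -0.28 ± 0.11 (adjusted p = 0.047, limma), but its groups overlapped. This call was lost in 10 of the alternatives. The other probe set of OASL was called lower at -0.40 ± 0.10 (adjusted p = 0.0031, limma).

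The 4 IFIT genes, which encode proteins that bind foreign RNA ends and lie in 1 cluster on chromosome 10, all fell, by less than the OAS genes (median log2 fold change -0.90; the difference between the families was not tested). IFIT1 had log2 levels of 7.97, 8.09 and 8.0 in Esh9-1 and 9.76, 10.08 and 9.77 in HCC827NT, a 3.61-fold fall (log2 -1.85 ± 0.12, adjusted p = 1.1e-08). IFIT3 changed by -0.99 ± 0.11, IFIT5 by -0.81 ± 0.08 and IFIT2 by -0.63 ± 0.10. For each of the 4, Esh9-1 arrays stood below HCC827NT arrays.

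The interferon-induced GTPases split by family. MX1 and MX2, dynamin-like proteins that trap viral particles, fell. MX1 had log2 levels of 7.94, 7.86 and 7.85 in Esh9-1 and 11.01, 11.38 and 11.12 in HCC827NT, a 9.78-fold fall (log2 -3.29 ± 0.09, adjusted p = 6.7e-13). MX2 had 6.42, 5.97 and 6.46 in Esh9-1 and 8.53, 8.66 and 8.60 in HCC827NT, a 4.96-fold fall (log2 -2.31 ± 0.13), with Esh9-1 below the array median. For both MX genes all Esh9-1 arrays were the lower ones. GBP1 and GBP2, guanylate-binding proteins that attack the vacuoles of intracellular pathogens, rose. GBP2 had 10.10, 9.90 and 10.05 in Esh9-1 and 7.17, 7.87 and 7.44 in HCC827NT, a 5.75-fold rise (log2 2.52 ± 0.14, adjusted p = 9.9e-10). GBP1 had 10.14, 10.19 and 10.16 in Esh9-1 and 8.38, 8.71 and 8.39 in HCC827NT, a 3.19-fold rise (log2 1.67 ± 0.13). GBP1 and GBP2 lie next to each other on chromosome 1, and all Esh9-1 arrays were the higher ones for both. The GBP1 probe set is of a type whose probes can match related transcripts, so its signal may be shared with relatives, and its other probe set gave 2.01 ± 0.13.

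All 5 membrane restriction factors fell (median log2 fold change -2.49). The IFITM proteins block fusion of viruses with endosomes, and their genes lie side by side on chromosome 11. IFITM3 had log2 levels of 8.61, 8.56 and 8.47 in Esh9-1 and 11.78, 11.89 and 11.86 in HCC827NT, a 9.80-fold fall (log2 -3.29 ± 0.06, adjusted p = 1.5e-14). IFITM1 had 7.21, 7.37 and 7.38 in Esh9-1 and 9.74, 10.07 and 9.84 in HCC827NT, a 5.91-fold fall (log2 -2.56 ± 0.09). IFITM2 had 8.31, 8.20 and 8.68 in Esh9-1 and 10.12, 10.23 and 9.80 in HCC827NT, a 3.15-fold fall (log2 -1.66 ± 0.13). The Esh9-1 arrays were lower throughout, and because the 3 genes are close copies their probe sets may share signal. BST2, or tetherin, which holds budding virus at the membrane, had 8.21, 7.98 and 8.22 in Esh9-1 and 10.47, 10.75 and 10.65 in HCC827NT. This was a 5.61-fold fall (log2 -2.49 ± 0.08, adjusted p = 5.2e-12) without overlap. LY6E, a membrane-anchored protein, changed least in this group, by -0.57 ± 0.08.

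The other antiviral effectors, 5 of 5, fell as well. PLSCR1, a phospholipid-binding protein, had log2 levels of 9.46, 9.35 and 9.41 in Esh9-1 and 12.40, 12.39 and 12.30 in HCC827NT, a 7.75-fold fall (log2 -2.95 ± 0.08, adjusted p = 3.8e-13). Its groups lay far apart relative to their spread. SAMD9, which restricts poxviruses, changed by -1.77 ± 0.13, RSAD2, or viperin, by -1.50 ± 0.18, TRIM22, a ubiquitin ligase, by -1.18 ± 0.15, and PARP12, an ADP-ribosyltransferase, by -1.12 ± 0.07. RSAD2 and TRIM22 lay below the array median in all 4 groups.

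In the ISG15 pathway, ISG15 itself and 3 of its partners fell while its ligase HERC5 rose. ISG15 had a mean log2 level of 11.02 ± 0.03 in Esh9-1 and 12.65 ± 0.10 in HCC827NT (SD, n = 3 each), a 3.10-fold fall (log2 -1.63 ± 0.07). USP18, the protease that removes ISG15, changed by -1.85 ± 0.08, HERC6, a relative of HERC5 and its neighbour on chromosome 4, by -0.44 ± 0.08, and UBE2L6, the conjugating enzyme, by -0.37 ± 0.08. HERC5, the main ISG15 ligase in human cells, had 8.40, 8.08 and 8.36 in Esh9-1 and 6.54, 6.54 and 6.73 in HCC827NT, a 3.20-fold rise (log2 1.68 ± 0.12, adjusted p = 2.6e-08). No Esh9-1 array overlapped the HCC827NT arrays for any of these 5 genes, where 61.3% of all genes did not overlap.

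The other interferon-inducible genes, 8 of 8, fell and included the 2 steepest falls. PLAAT4, a phospholipase-like growth regulator also known as RARRES3, had log2 levels of 8.40, 7.89 and 8.15 in Esh9-1 and 12.30, 12.42 and 12.46 in HCC827NT, a 19.0-fold fall (log2 -4.25 ± 0.10, adjusted p = 2.1e-13). IFI27, a mitochondrial and nuclear membrane protein, had 6.58, 6.58 and 6.49 in Esh9-1 and 10.25, 10.75 and 10.64 in HCC827NT, a 15.9-fold fall (log2 -3.99 ± 0.11, adjusted p = 6.4e-13). The Esh9-1 arrays of IFI27 lay below the array median, and those of PLAAT4 above it. IFI44 changed by -1.86 ± 0.11 and its neighbour IFI44L by -1.25 ± 0.14, IFI35 by -1.05 ± 0.08, and XAF1, an antagonist of the caspase inhibitor XIAP, by -0.80 ± 0.12. IFI16, a DNA sensor, changed by -0.62 ± 0.08, and IFI6, an inhibitor of apoptosis, by -0.55 ± 0.10.

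Antigen-processing genes did not follow the others. PSMB9, a subunit of the immunoproteasome, had log2 levels of 10.18, 10.02 and 10.06 in Esh9-1 and 9.38, 9.35 and 9.40 in HCC827NT, a 1.63-fold rise (log2 0.71 ± 0.06, adjusted p = 3.3e-07). TAP1, a subunit of the peptide transporter, had 9.66, 9.55 and 9.53 in Esh9-1 and 8.74, 9.09 and 9.06 in HCC827NT, a 1.53-fold rise (log2 0.62 ± 0.10). The Esh9-1 arrays were the higher ones for both. PSMB8, which lies beside TAP1 and PSMB9 on chromosome 6, changed by -0.13 ± 0.06 and was not called (adjusted p = 0.11). CXCL10 and CXCL11, chemokines that attract T cells, were not called, at -0.04 ± 0.09 and 0.05 ± 0.07, and lay below the array median in all 4 groups. Of the 24 genes with an ISRE core in a promoter window, 19 fell and 3 rose (median log2 fold change -1.56). Of the 12 without one, 9 fell and 1 rose (median -0.62). The gap was not particular to the ISRE. Of the 13 genes with the GAS letters, 9 fell and 1 rose (median -1.81). Of the 23 without these letters, 19 fell and 3 rose (median -0.99). These counts are a description with no test.

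**Figure D2:**
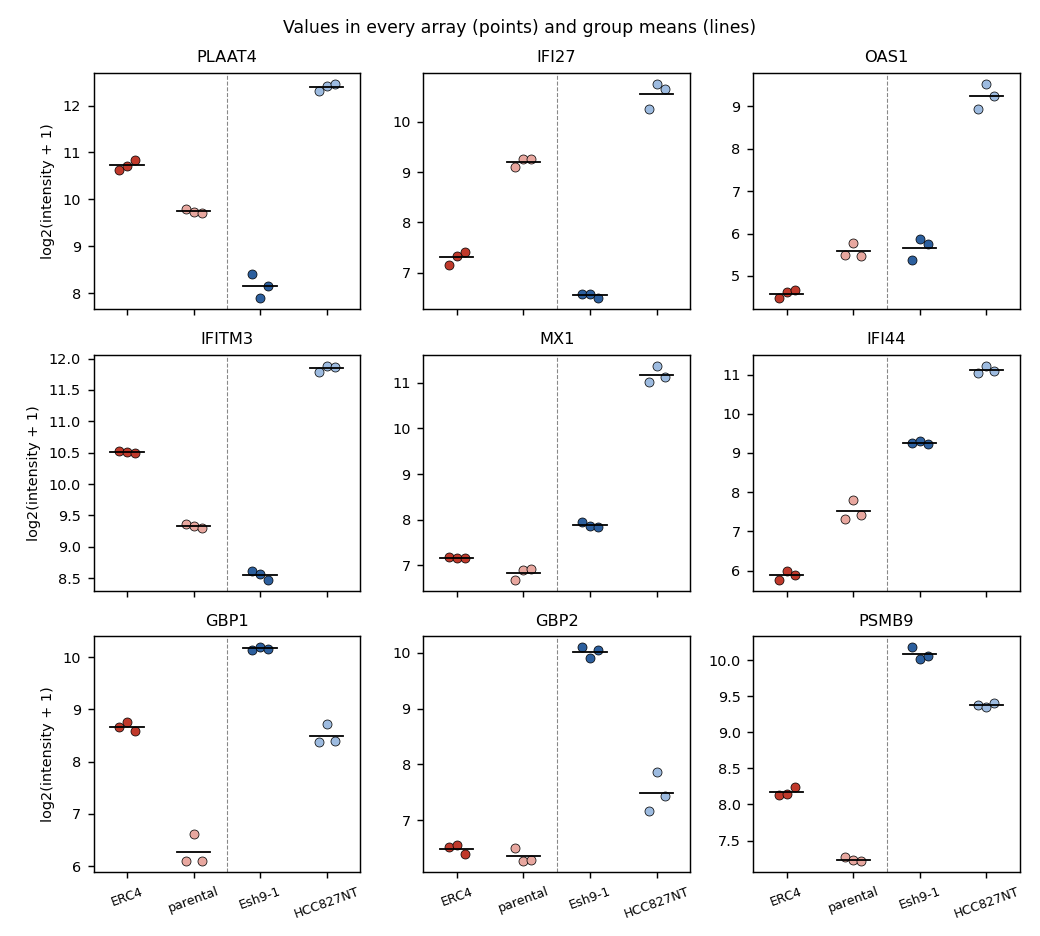
Log2(intensity + 1) of 9 genes in every array (points) with group means (lines). The dashed line parts the 2 sets of arrays, which were treated as normalized apart. PLAAT4, IFITM3 and MX1 are higher in ERC4 and lower in Esh9-1 than in the cells each was set against, IFI27, OAS1 and IFI44 are lower in both, GBP1 and PSMB9 are higher in both, and GBP2 differs without overlap in Esh9-1 only.

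In ERC4 cells the same genes went both ways relative to parental cells. Of the 47, 17 rose, 12 fell and 18 did not pass, while 28.9% of all genes rose, 28.8% fell and 57.7% were called either way, so the share of the members called was near that of all genes. Rises of at least 2-fold numbered 2, with a background of 4.51%, and falls of at least 2-fold 4, with a background of 1.79%. The 2 rises became 4 after median centring, 7 after the ERC4 and parental arrays were stretched to match the SD of the Esh9-1 and HCC827NT arrays, and 4 without ERC4 replicate 1. The median log2 fold change was 0.08 over the 47 genes and -0.04 over all genes, and the range was -1.90 to 2.40. The arrays did not overlap for 33 of 47, against 60.5% of all genes. Calls and lack of overlap in the smaller groups of genes below are to be read against these shares. Of the 30 members in the upper 50% by mean level, 13 rose and 9 fell, against 44.8% and 22.8% of all genes there. The split moved with the scaling: 13 rose and 14 fell after quantile normalization within each set, and 21 rose and 10 fell after median centring.

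GBP1 had the largest rise in ERC4, with log2 levels of 8.66, 8.75 and 8.59 in ERC4 and 6.10, 6.62 and 6.09 in parental, a 5.27-fold difference (log2 2.40 ± 0.13, adjusted p = 2.0e-09). Its neighbour GBP2 was not called (0.14 ± 0.14, adjusted p = 0.41), nor was MX2 (0.05 ± 0.13), and MX1 was called at 0.33 ± 0.09 (adjusted p = 0.0067).

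The IFITM genes rose together in ERC4. IFITM3 had log2 levels of 10.53, 10.51 and 10.50 in ERC4 and 9.36, 9.33 and 9.30 in parental, a 2.27-fold rise (log2 1.18 ± 0.06, adjusted p = 1.8e-09). IFITM2 had 8.62, 8.88 and 8.76 in ERC4 and 7.82, 7.66 and 7.77 in parental (log2 1.00 ± 0.13). IFITM1 had 6.86, 6.88 and 6.90 in ERC4 and 5.96, 6.13 and 6.01 in parental, a 1.8-fold rise (log2 0.85 ± 0.09). All ERC4 arrays were above all parental arrays for the 3 genes. BST2 was called at 0.26 ± 0.08 (adjusted p = 0.017), but not after quantile normalization within each set (adjusted p = 0.73). LY6E had means of 8.39 in ERC4 and 8.39 in parental, and was called lower after that normalization (-0.22, adjusted p = 0.027).

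All 4 IFIT genes were higher in ERC4 without overlap, where 28.9% of all genes were called higher and 60.5% did not overlap. IFIT5 changed by 0.87 ± 0.08 and IFIT1 by 0.59 ± 0.12, IFIT2 by 0.42 ± 0.10 and IFIT3 by 0.32 ± 0.11 (adjusted p = 0.022). The second probe set of IFIT5 gave 0.30 ± 0.11 (adjusted p = 0.031), and IFIT3 was 0.15 after quantile normalization within each set and not called (adjusted p = 0.29). The call of IFIT3 was lost in 3 of the alternatives, this one included. IFIT1, IFIT2 and IFIT5 lay within 1 log2 unit of the array median in both groups. PLAAT4 had 10.62, 10.72 and 10.83 in ERC4 and 9.79, 9.74 and 9.71 in parental, a 1.96-fold rise (log2 0.97 ± 0.10, adjusted p = 2.4e-06). IFI16 had 9.06, 9.02 and 8.89 in ERC4 and 8.42, 8.37 and 8.46 in parental, a 1.49-fold rise (log2 0.57 ± 0.08). Neither gene overlapped between the groups.

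Of the antigen-processing genes, PSMB9 had 8.13, 8.14 and 8.24 in ERC4 and 7.27, 7.23 and 7.21 in parental, a 1.91-fold rise (log2 0.94 ± 0.06, adjusted p = 2.7e-08). TAP1 had 7.04, 7.01 and 6.88 in ERC4 and 6.12, 6.15 and 6.38 in parental, a 1.69-fold rise (log2 0.76 ± 0.10). PSMB8 was not called (-0.09 ± 0.06), but was called lower after quantile normalization within each set (-0.32, adjusted p = 0.00091). HERC5 rose by 0.50 ± 0.12 and IRF1 by 0.38 ± 0.09, and PARP12 was called at 0.20 ± 0.07 (adjusted p = 0.021), which became -0.00 after quantile normalization within each set (adjusted p = 0.98).

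The falls in ERC4 were led by IFI27, IFI44 and IFI44L. IFI27 had log2 levels of 7.16, 7.34 and 7.41 in ERC4 and 9.10, 9.26 and 9.25 in parental, a 3.73-fold fall (log2 -1.90 ± 0.11, adjusted p = 4.7e-09). IFI44 had 5.76, 6.0 and 5.88 in ERC4 and 7.32, 7.79 and 7.41 in parental, a 3.09-fold fall (log2 -1.63 ± 0.11). IFI44L, its neighbour on chromosome 1, had 5.47, 5.59 and 5.71 in ERC4 and 6.94, 7.28 and 7.26 in parental, a 2.97-fold fall (log2 -1.57 ± 0.14). The groups lay apart for all 3, but the second, dimmer probe set of IFI44 gave -0.25 ± 0.11 and was not called (adjusted p = 0.062). OAS3 had 7.03, 6.96 and 7.12 in ERC4 and 7.74, 7.91 and 7.87 in parental, a 1.75-fold fall (log2 -0.80 ± 0.08, adjusted p = 7.0e-07). OAS1 changed by -1.0 ± 0.15 and SAMD9 by -1.27 ± 0.13, both below the array median in both groups, and the second probe set of OAS1 gave -0.29 ± 0.12 and was not called (adjusted p = 0.051). OAS2 was not called (-0.02 ± 0.13). SP110, IFI6, IFI35 and UBE2L6 were lower, with log2 fold changes between -0.49 and -0.29. HERC6 (-0.21 ± 0.08) and PLSCR1 (-0.20 ± 0.08), both at an adjusted p of 0.043, lost their calls in 14 and 11 of the alternatives, and the other probe set of PLSCR1 gave 0.26 ± 0.11 (adjusted p = 0.055). Of the 29 calls in ERC4, 22 kept their direction and call under every alternative run, and the 7 that did not were BST2, HERC6, IFIT3, IRF1, MX1, PARP12 and PLSCR1. ISG15 (0.06 ± 0.07), IRF7 (0.18 ± 0.09) and IRF9 (0.12 ± 0.07) were not called. IRF7 was called higher after median centring (0.24, adjusted p = 0.029) and without ERC4 replicate 2, and IRF9 after median centring (0.18, adjusted p = 0.042). USP18 (-0.20 ± 0.08) was not called either, but was called lower in 8 of the alternatives, and XAF1 (0.26 ± 0.12) was called higher in 6. The probe sets of EIF2AK2 differed in sign: the brighter one was not called (-0.19 ± 0.09), but was called lower in 3 of the alternatives (-0.41, adjusted p = 0.0018, after quantile normalization within each set), and the other one rose by 0.43 ± 0.08 (adjusted p = 0.00032).

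The changes in ERC4 and in Esh9-1 were then set against each other by a test of their difference, ERC4 minus parental less Esh9-1 minus HCC827NT, which share no arrays. At an adjusted p under 0.05, the difference passed above 0 for 34 of the 47 genes and below 0 for 2, GBP2 and HERC5. Of all genes, 25.5% passed above 0, 24.1% below 0 and 49.6% either way. The sets differ in the spread of their values (mean SD 1.89 and 2.26 on the log2 scale), and 34 is within the 33 to 37 found under the alternatives, stretching included. Higher in ERC4 and lower in Esh9-1 were 12 genes, IFIT1, IFIT2, IFIT3, IFIT5, MX1, PARP12, IFITM1, IFITM2, IFITM3, BST2, IFI16 and PLAAT4, against 6.40% of all genes, and this count ran from 9 to 16 under the alternatives. The reverse pattern was found for 0 of the 47 by limma's adjusted p, and for 0 at an unadjusted p under 0.05, against 3.25% of all genes by adjusted p. Lower in both were 12 genes, among them IFI27, OAS1, OAS3, IFI44 and SAMD9, against 8.80% of all genes. Higher in both were 4, GBP1, HERC5, PSMB9 and TAP1, against 13.4% of all genes. These counts of joint calls depend on the calls of each comparison alone. Among the 47, 17 were higher in ERC4, and 38 were lower and only 5 higher in Esh9-1. A link between the 2 changes was not tested. Among the 12 genes with opposite calls the difference was largest for PLAAT4, 5.22 ± 0.15 on the log2 scale, then IFITM3, 4.48 ± 0.09, and MX1, 3.62 ± 0.13. It is a description for these genes, which were picked for their opposite calls.

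**Figure D3:**
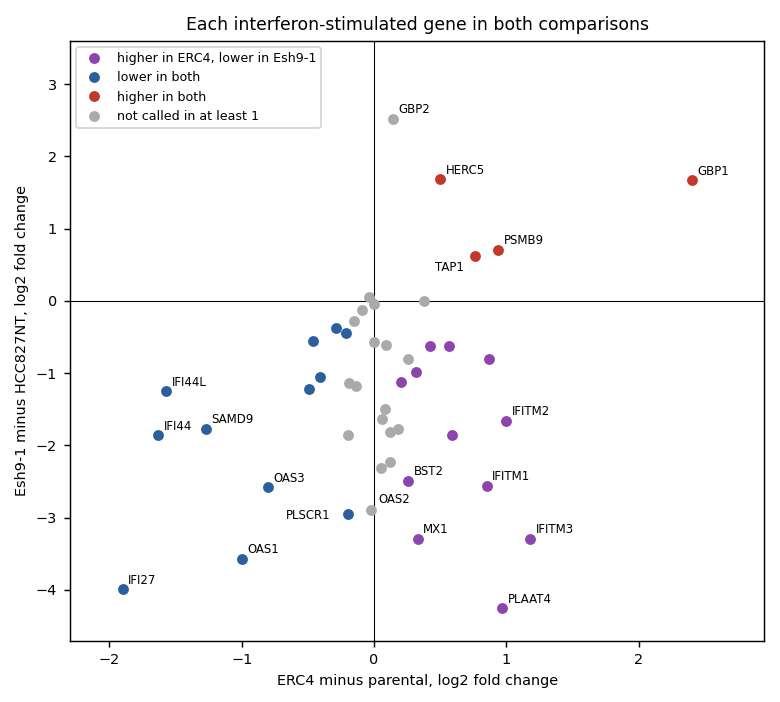
Log2 fold change of each of the 47 genes in ERC4 minus parental (horizontal axis) and in Esh9-1 minus HCC827NT (vertical axis), coloured by its calls. The 12 purple genes, such as PLAAT4 and IFITM3, lie at the lower right, the 12 genes lower in both at the lower left, and GBP1, HERC5, PSMB9 and TAP1 at the upper right.

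Relative to their own array medians, interferon-stimulated genes stood highest in HCC827NT. The members above the array median numbered 34 of 47 in ERC4 and 34 in parental, and 37 in Esh9-1 and 42 in HCC827NT. Of all 11963 genes, 6857 lay above it in ERC4, 6866 in parental, 6853 in Esh9-1 and 6841 in HCC827NT. The median position of the 47 members was 1.29 log2 units above the array median in ERC4 and 1.20 in parental. It was 1.21 in Esh9-1 and 2.70 in HCC827NT. Over all genes it was 0.40 in ERC4, 0.36 in parental, 0.49 in Esh9-1 and 0.48 in HCC827NT. Genes stood by their brightest probe set, while the array median was taken over all probe sets. The 5 members below the array median in HCC827NT were RSAD2, TRIM22, HERC5, CXCL10 and CXCL11. The difference HCC827NT minus parental, each relative to its array medians, was above 0 for 42 of the 47 (89.4%), against 51.0% of all genes, and reached 1 log2 unit for 28 (59.6%), against 12.3%. Its median was 1.24 over the 47 and 0.03 over all genes. It was largest for IFIT1, at 2.70 in HCC827NT and -0.38 in parental. MX1 stood at 4.01 in HCC827NT and 1.08 in parental, and OAS2 at 1.71 in HCC827NT and -1.01 in parental. IFI27 was as high in both, at 3.38 in HCC827NT and 3.46 in parental. Divided by each array's own SD, 40 of the 47 were above 0 (85.1%, against 40.9% of all genes). Esh9-1 minus parental was above 0 for 25 of the 47 (53.2%, against 48.5% of all genes), with a median of 0.18, and ran from -4.07 for IFI27 to 2.47 for GBP1. These positions are a description with no test, because group and set of arrays cannot be told apart between HCC827NT and parental. The difference from parental and the fall in Esh9-1 both use the HCC827NT arrays.

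**Figure D4:**
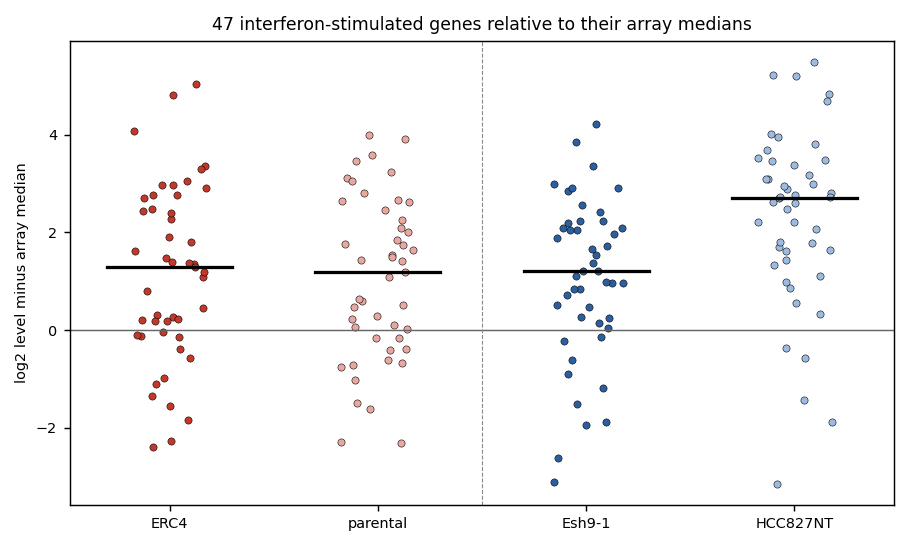
Mean log2 level of each of the 47 genes minus the array median, by group (points), with the median over the genes (black line); the dashed line parts the 2 sets of arrays. The line lies at 2.70 in HCC827NT and between 1.20 and 1.29 in the other groups.

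Other genes of the pathway, 83 of 114 listed, went both ways. In Esh9-1 22 rose and 29 fell, where 25.3% of all genes rose and 24.6% fell, and in ERC4 24 rose and 26 fell, where 28.9% of all genes rose and 28.8% fell. The counts of the smaller lists that follow, and of the cell markers, are to be read against these shares. Of 14 interferon genes on the array, 5 fell in Esh9-1 and 4 in ERC4, and the others did not pass. Their levels were low: 1, IFNA17, lay above the array median in ERC4 and parental, by 0.05 and 0.19, and 0 did in Esh9-1 or HCC827NT. IFNB1, interferon beta, had mean log2 levels of 5.32 in Esh9-1 and 5.25 in HCC827NT and was not called. Of 5 receptor chains, 2 rose and 2 fell in Esh9-1: IFNAR2, a chain of the alpha and beta receptor, changed by 0.45 ± 0.11, IFNGR2, of the gamma receptor, by 0.29 ± 0.08, and IL10RB, of the lambda receptor, by -0.43 ± 0.08. IFNAR1 was not called (0.29 ± 0.13). JAK1 rose by 1.03 ± 0.07 and JAK2 by 0.41 ± 0.09 in Esh9-1, and STAT3, a signal transducer, changed by -0.66 ± 0.08. Of the 6 kinases and STATs listed, 4 were analysed here, and the STATs of the interferon-activated complex were not. In ERC4 IFNAR2 and IFNGR1 were higher by 0.26 and 0.19, and JAK2, TYK2 and JAK1 by 0.35, 0.33 and 0.18.

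Among 13 nucleic acid sensors and adaptors, 3 rose and 5 fell in Esh9-1, and 3 rose and 8 fell in ERC4. The RNA sensors IFIH1 (MDA5) and RIGI changed in Esh9-1 by -1.62 ± 0.09 and -1.0 ± 0.14, and the DNA sensor AIM2 by -1.28 ± 0.10. In ERC4 ZBP1, a sensor of Z-form nucleic acid, changed by -0.79, and DHX58 and TICAM1 by -0.63 each. Of 8 negative regulators, 1 rose and 3 fell in Esh9-1, with the phosphatase PTPN6 at -1.16 ± 0.09 and RNASEH2A, part of a nuclease that clears RNA-DNA hybrids, at -0.75 ± 0.08. In ERC4 2 rose and 3 fell, with PTPN11 at 0.67, SOCS1 at -0.58 and PTPN6 at -0.57.

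Of 25 further interferon-inducible genes, 4 rose and 11 fell in Esh9-1, led by TRIM25, the ligase that activates RIGI (-1.59 ± 0.12), WARS1, a tryptophanyl-tRNA synthetase (-1.16 ± 0.07), and APOL1 (-1.15 ± 0.07). In ERC4 7 rose and 8 fell, led by the complement protease C1S at 1.48, LGALS3BP at -1.20 and SP100 at -0.97. Of 14 genes of the HLA class I pathway, 10 rose and 2 fell in Esh9-1, while 25.3% of all genes rose. HLA-B and HLA-F were each at 0.91 ± 0.06 and the immunoproteasome subunit PSMB10 at 0.80 ± 0.09, beside the rises of PSMB9 and TAP1. HLA-C, HLA-E and HLA-G rose too, and because the HLA genes are close relatives their probe sets may share signal. In ERC4 7 of the 14 genes rose and 3 fell, with CALR at 0.68, TAPBP at 0.57 and TAP2 at -0.43.

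Markers of other cells were read in the same arrays. Of 16 leukocyte markers, 6 fell in Esh9-1 and 8 in ERC4, and the others did not pass. The log2 of their summed intensity ranged from 10.70 to 10.78 in Esh9-1 and from 12.51 to 12.62 in HCC827NT, and from 9.68 to 9.78 in ERC4 and from 10.33 to 10.50 in parental. LCP1, an actin bundler that carcinoma lines can also express, had mean log2 levels of 9.06 in Esh9-1 and 12.19 in HCC827NT (-3.14 ± 0.07). It made up most of the summed intensity in HCC827NT and most of the fall of the sum in Esh9-1. In the other set LCP1 had 8.02 in ERC4 and 9.34 in parental. PTPRC, the pan-leukocyte antigen CD45, lay below the array median in all 4 groups. CD53, another marker of the list, lay above it in all 4, by 0.78 in HCC827NT to 1.44 in ERC4 and parental. Of the 16 leukocyte markers, 2 lay above the array median in ERC4, 5 in parental, 2 in Esh9-1 and 3 in HCC827NT. Of 16 fibroblast and endothelial markers, 2 rose and 3 fell in Esh9-1, and 1 rose and 9 fell in ERC4. Rises in Esh9-1 were those of LUM (2.56 ± 0.09), below the array median in all 4 groups, and ENG (2.15 ± 0.08). The falls there lay between -0.34 and -0.21. In ERC4 LUM was at 0.53 ± 0.09 and ENG at -1.07 ± 0.08. Summed levels of the 16 markers were 10.78 to 10.84 in Esh9-1 and 10.52 to 10.63 in HCC827NT. They were 9.28 to 9.36 in ERC4 and 9.68 to 9.76 in parental. Of 12 epithelial and lung carcinoma markers, 12 fell in Esh9-1, and 2 rose and 9 fell in ERC4. The largest falls were those of CDH1 (-6.28 ± 0.10) and EPCAM (-4.92 ± 0.08) in Esh9-1, and of CLDN7 (-3.90 ± 0.08) and MUC1 (-2.78 ± 0.08) in ERC4. EGFR, 1 of the 2 that rose in ERC4, was at -1.30 ± 0.07 in Esh9-1 and 0.21 ± 0.07 in ERC4. As the target of the shRNA, its fall in Esh9-1 was set by the design. Summed levels of the 12 markers were 14.01 to 14.03 in Esh9-1 and 16.24 to 16.29 in HCC827NT. In the other set they were 13.85 to 13.92 in ERC4 and 14.68 to 14.71 in parental. All 12 lay above the array median in ERC4, parental and HCC827NT, and 10 did in Esh9-1. The part of these markers in the results on interferon-stimulated genes was not tested.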

How the data were processed

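Transcripts were measured on 12 arrays of 4 groups of 3. The deposited values are linear intensities of 22277 probe sets, made by the authors with RMA, per the submitters' processing notes. Its version is not given in the sources used here, nor is the grouping of arrays in that step. Of the probe sets, 19070 had 1 gene symbol in the platform annotation, 1043 several and 2164 none; only the first were used, which gave 11963 genes, 4310 of them with several probe sets. Intensities were taken to log2(value + 1). Tests used lmFit and eBayes of limma 3.58.1 (R 4.3.3) with 1 group mean per group over all 12 arrays, leaving 8 residual degrees of freedom, and two-sided p-values adjusted by Benjamini-Hochberg over all genes and called under 0.05. Errors of fold changes are standard errors. Summaries and figures used Python 3.11.15. The procedure was tested on simulated data.

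The members and gene lists were chosen with earlier results of these data known, so nothing is tested over a list. Values in every array are given for the 12 called members per comparison with the largest change, no overlap between groups and a higher group mean at or above the median of the 6 arrays. Differences of effects are given for up to 10 members called in opposite directions, and 3 called genes are named per other pathway list. Other members named were chosen after their values were seen.

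Alternatives covered a replicate block, fits of 6 arrays, eBayes with trend and robust settings, quantile normalization, median centring, stretching the ERC4 and parental values, pseudocounts of 0 and 16, leaving out dim genes, averaging probe sets and leaving out each array. Same-numbered replicates did not deviate together (correlations of 0.002 to 0.068 for ERC4 and parental, -0.124 to -0.019 for Esh9-1 and HCC827NT), so the numbers were not taken as pairs. Precision is limited by 3 arrays per group. Motifs were searched on both strands of RefSeq promoter windows of 300 bases.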

Additional observations from a re-analysis of the deposited data

Results flagged for a closer look

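For 12 genes the calls ran opposite ways, higher in ERC4 than in parental and lower in Esh9-1 than in HCC827NT. The 10 with the largest difference between the effects are given here. They were picked for these opposite calls, so the size of the difference between the effects (log2 scale, with limma's standard error) is a description and its test adds no support. PLAAT4 had the largest difference, 5.22 ± 0.15, from a change of 0.97 in ERC4 and of -4.25 in Esh9-1. Next were IFITM3 with 4.48 ± 0.09, MX1 with 3.62 ± 0.13 and IFITM1 with 3.41 ± 0.12. BST2 had 2.75 ± 0.12, IFITM2 2.65 ± 0.18 and IFIT1 2.44 ± 0.17. Smaller differences were 1.69 ± 0.11 for IFIT5, 1.32 ± 0.10 for PARP12 and 1.32 ± 0.16 for IFIT3. The calls of BST2, IFIT3, MX1 and PARP12 in ERC4 were lost in at least 1 alternative.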

How the results depend on the processing

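Of 43 calls in Esh9-1, 42 kept call and direction under every alternative; OASL did not (adjusted p 0.052 to 0.19 where lost). Members not called in ERC4 gained a call for USP18 in 8 settings, XAF1 in 6, EIF2AK2 in 3, IRF7 in 2 and IRF9, ADAR, PSMB8 and LY6E in 1 each. Members higher in Esh9-1 stayed at 5, and those lower ran from 37 to 38. In ERC4 the members higher ran from 13 to 21 and those lower from 10 to 14; those at least 2-fold higher, 2 as reported, were 4 after median centring, 7 after stretching and 2 to 4 without 1 array (4 without ERC4 replicate 1). With the replicate block, 17 members were higher and 11 lower in ERC4, and 5 and 37 in Esh9-1. ERC4 values changed sign under quantile normalization for IRF9 (-0.11), OAS2 (0.09), ADAR (-0.10), ISG20 (-0.01), PARP12 (-0.00), LY6E (-0.22), ISG15 (-0.15) and CXCL11 (0.06), under median centring for OAS2 (0.04) and CXCL11 (0.02), with the mean of probe sets for EIF2AK2 (0.12) and PLSCR1 (0.03), after stretching for LY6E (-0.00) and with a pseudocount of 16 for CXCL10 (-0.00). Without 1 array, ERC4 values ran from -0.07 to 0.06 for OAS2, -0.06 to 0.15 for MX2, -0.04 to 0.03 for LY6E, -0.06 to 0.11 for CXCL10 and -0.11 to 0.03 for CXCL11. In Esh9-1, IRF1 ran from -0.05 to 0.02 and CXCL10 from -0.10 to 0.01, and CXCL11 was -0.00 with the mean of probe sets. Of these, PARP12 and PLSCR1 were called as reported; the cause was not tested. The filter on dim genes left 44 members. The difference of effects has no fit on 6 arrays. Probe sets below the array median limit the size of folds.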
